A study of Arabidopsis thaliana with 4 samples.

Results

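Flowering of *Arabidopsis thaliana* is held back by several families of transcription factors, and 8 genes of such families are described here. They are the AP2-like genes *APETALA2* (*AP2*, AT4G36920), *TARGET OF EAT1* (*TOE1*, AT2G28550), *TOE2* (AT5G60120), *TOE3* (AT5G67180), *SCHLAFMÜTZE* (*SMZ*, AT3G54990), and *SCHNARCHZAPFEN* (*SNZ*, AT2G39250), and the RAV-family genes *TEMPRANILLO1* (*TEM1*, AT1G25560) and *TEM2* (AT1G68840). The genes were selected by their locus identifiers from what is known of floral repressors, and not by their values. Earlier results of these data were known at that time. The genes are 8 of the 22409 loci of the expression table, 21284 of which are annotated genes. The table names *TOE1* as *RAP2.7* and *TEM2* as *RAV2*. RNA was sequenced from whole seedlings of 4 genotypes, which are the wild type (WT, Col-0), the T-DNA insertion mutants *upf1-5* and *upf3-1*, and the *upf1-5 upf3-1* double mutant obtained by crossing them. UPF1 and UPF3 are core factors of nonsense-mediated mRNA decay (NMD), which removes transcripts with a premature stop codon. All seedlings were 8 days old, had grown on MS plates at 23°C under long days, and were harvested and pooled at Zeitgeber Time 16 (ZT16), with 1 library for each genotype. No genotype therefore has a replicate, no test between genotypes was possible, and each mutation is represented by 1 line.

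AP2-like repressors carry a pair of AP2 DNA-binding domains, recruit TOPLESS corepressors, and repress *FT* and other genes that promote flowering. Their mRNAs are recognised by the microRNA miR172, which rises as the plant ages, cleaves these mRNAs, and also blocks their translation. TEM1 and TEM2 carry 1 AP2 domain and a B3 domain, repress *FT* in competition with its activator CONSTANS (CO), and repress gibberellin synthesis genes. In young seedlings both families delay flowering, and in the flower *AP2* also specifies sepals and petals.

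The miR172 sequences are shown because they set the AP2-like genes apart from the *TEM* genes. They were read from the RefSeq annotation of the TAIR10.1 assembly, as DNA letters from 5′ to 3′, with the seed (bases 2 to 8) in capitals. All mature 3p forms share the same seed, and the loci differ at the first or the last base.
miR172a and miR172b: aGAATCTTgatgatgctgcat
miR172c and miR172d: aGAATCTTgatgatgctgcag
miR172e: gGAATCTTgatgatgctgcat
The best complementary site in each AP2-like mRNA follows, on the mRNA strand, with capitals at the bases that do not form a Watson-Crick pair with the nearest miR172.
*AP2* (chr4:17403019-17403039, plus strand): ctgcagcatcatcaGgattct
*TOE1* (chr2:12226233-12226253, minus strand): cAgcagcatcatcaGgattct
*TOE2* (chr5:24210889-24210909, plus strand): atgcagcatcatcaGgattct
*TOE3* (chr5:26802175-26802195, minus strand): TGgcagcatcatcaGgattct
*SMZ* (chr3:20373774-20373794, minus strand): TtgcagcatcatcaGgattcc
*SNZ* (chr2:16389066-16389086, minus strand): TtgTagcatcatcaGgattcc
Each of the 6 sites has 1 such base opposite the seed, a G that can form a wobble pair, and between 1 and 3 in all. All 6 sites are in the coding region, and end between 56 and 158 nt before its end. *AP2* and *TOE2* had 1 mismatch, *TOE1* and *SMZ* had 2, and *TOE3* and *SNZ* had 3. The best stretch in *TEM1* and in *TEM2* had 8 mismatches, so no site is shown for them. Of 27444 genes with a coding model, 8 (0.0292%) held a stretch with at most 3 mismatches to a miR172 of this set, and 6 of these 8 are the AP2-like genes. A match of letters is a description and no measurement of cleavage.

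**Figure D1:**
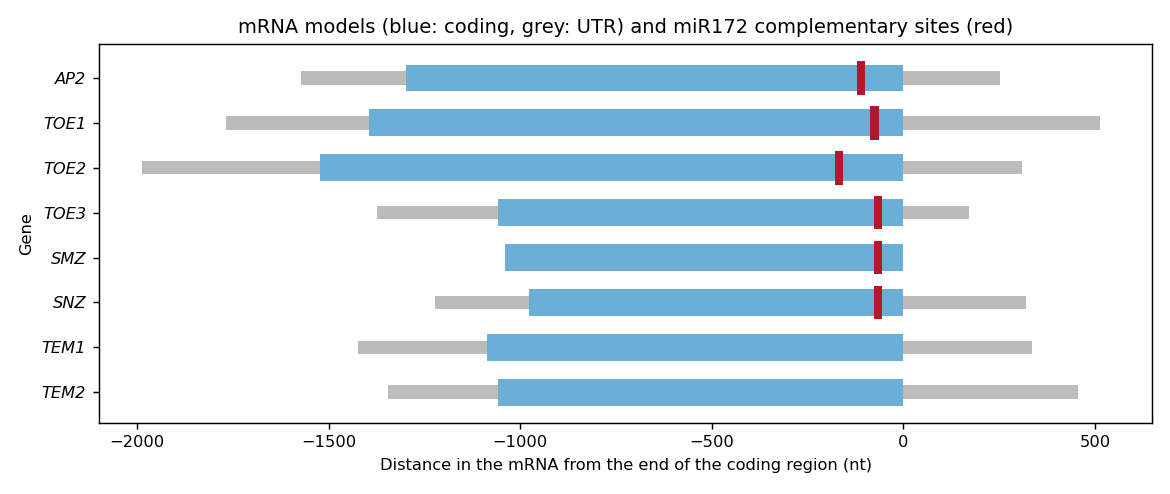
mRNA model with the longest coding region of each of the 8 genes, drawn to scale in nt from the end of the coding region, which is at 0 (blue, coding region; grey, UTRs; red, site with at most 3 mismatches to miR172). The 6 AP2-like genes have the site near the end of the coding region, 56 to 158 nt before it, and *TEM1* and *TEM2* have none; the *SMZ* model has no annotated UTR.

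Among the coding sequences, *TEM1* and *TEM2* were the most alike, with 78.4% of the bases of the shorter one identical in a pairwise alignment. *SMZ* and *SNZ* shared 75.6%, and *AP2* and *TOE3* shared 72.2%. These 3 pairs are close paralogs, so that fragments from a stretch common to both cannot always be assigned to 1 of them. *TEM1* and *TEM2* have no intron in the model with the longest coding region, whereas the AP2-like genes have between 7 and 10 exons. Features that NMD can recognise were looked for in these models. No gene had a junction of exons over 50 nt downstream of its stop codon in the model with the longest coding region, as against 1.63% of all genes. Among the further models such a junction was annotated in 3 of 6 models of *TOE1*, 3 of 6 of *TOE2*, and 1 of 2 of *SNZ*. A 3′-UTR of at least 350 nt was present in *TOE1* (512 nt) and *TEM2* (455 nt), and in 18.5% of all genes. Counting every annotated model, it was in 6 of 6 of *TOE1*, 3 of 6 of *TOE2*, 1 of 2 of *SNZ*, and 1 of 2 of *TEM2*. An open reading frame of 35 codons or more within the 5′-UTR was present in *AP2* (48 codons), *TOE1* (45), and *TEM2* (35), and in 8.93% of all genes. Over every annotated model, it was in 1 of 2 of *AP2*, 6 of 6 of *TOE1*, and 1 of 2 of *TEM2*. The shares of all genes count 1 model per gene. Shares that count every model were not computed, so the counts over every model have no background. In the model with the longest coding region, *TEM1* and *TOE3*, whose levels differed most between the libraries, had none of these features. *TEM2*, which came next (2.33-fold between its highest and lowest library), had the long 3′-UTR and the reading frame in the 5′-UTR. Whether NMD acts on these mRNAs was not tested.

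Expression is given in FPKM, fragment numbers scaled to the length of the transcript and the size of the library, which was recovered for each library from the sum and the fold of each pair of libraries in the table. The standard error that the rounding of the table gives a value of these 8 genes is at most 0.0805%. Low values in the table move in steps that 1 fragment makes, and from these steps the libraries rest on an estimated 8750000 fragments in WT, 7280000 in *upf1-5*, 5960000 in *upf3-1*, and 8920000 with both mutations. All intervals below are 95% intervals from the number of fragments estimated in this way (exact Poisson for a level, Clopper-Pearson for a ratio). They cover counting error only, and not the difference between pools of seedlings of the same genotype, which was not measured. The fragment number of a gene uses its longest annotated model, which need not be that of the authors. For *SMZ*, whose models hold no UTR, the number is underestimated and the interval too wide if the transcript has UTRs. For *TOE1* (2493 nt) and *TOE2* (2798 nt), models with the longest coding region are shorter (2280 and 2297 nt). If shorter models prevail, these fragment numbers are overestimated and the intervals too narrow. The mutated genes followed the labels. *UPF1* was at 23.9 FPKM in WT, 3.18 in *upf1-5*, 30.6 in *upf3-1*, and 8.27 with both mutations, and *UPF3* was at 20.8, 33.7, 6.36, and 7.10 FPKM in the same order.

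All 8 genes had at least 1 FPKM in every library. In WT, *TOE1* was the highest at 47.0 FPKM, followed by *TEM2* at 40.7 and *TEM1* at 39.4 FPKM, whose intervals overlap. *SMZ* (27.3 FPKM), *TOE2* (21.4 FPKM), *SNZ* (21.0 FPKM), and *AP2* (15.9 FPKM) formed the middle of the order, with *TOE2* and *SNZ* within counting error of each other. *TOE3* was the lowest at 2.23 FPKM, which rests on an estimated 30 fragments. Summed over the 6 AP2-like genes, the level was 135 FPKM in WT, 142 in *upf1-5*, 144 in *upf3-1*, and 141 with both mutations, so that the sum stayed between 1.05 and 1.07 times the WT level. Its composition differed, since *TOE2* made up 15.9% of the sum in WT and 25.4% in the double mutant, while *SNZ* made up 15.5% in WT and 7.98% in the double mutant. The summed level of *TEM1* and *TEM2* was 80.1 FPKM in WT, 70.1 in *upf1-5*, 34.6 in *upf3-1*, and 71.2 with both mutations. The low sum in *upf3-1* is thus not present in the double mutant, which carries the same allele. This holds for the sum only. *TEM1* stayed low in the double mutant (19.9 FPKM, against 39.4 in WT), while *TEM2* was above WT (51.3 FPKM, against 40.7).

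**Figure D2:**
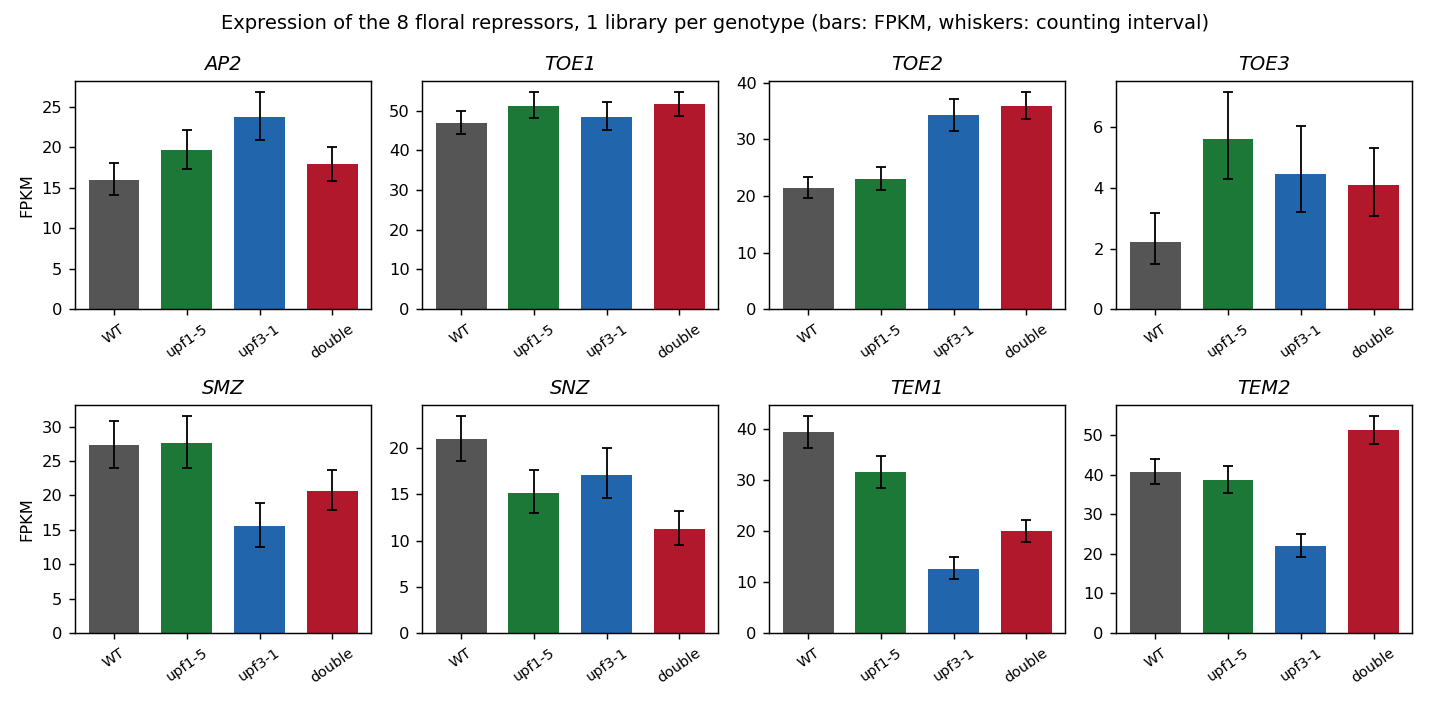
FPKM of the 8 floral repressors (1 panel per gene, vertical axis from 0) in the single WT, *upf1-5*, *upf3-1*, and double mutant libraries; whiskers are 95% Poisson intervals of the estimated fragment number. *TOE1* lies between 47.0 and 51.6 FPKM in all libraries, while *TEM1* goes from 39.4 in WT to 12.6 FPKM in *upf3-1*.

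A gene was called changed when its FPKM differed at least 2-fold from WT with at least 1 FPKM in either library. The fold and FPKM thresholds are those of the study, whereas its filter on the false discovery rate was not applied, and the FPKM threshold was read here as met by either library. In *upf1-5*, 1 of the 8 genes was up-regulated, *TOE3*, and 0 were down-regulated, beside 7.64% and 2.40% of 19602 loci. In *upf3-1*, 0 were up-regulated and 1 was down-regulated, *TEM1*, beside 14.6% and 6.89% of 19789 loci. In the double mutant, 0 were up-regulated and 0 were down-regulated, beside 15.0% and 6.91% of 20008 loci. These counts are near what the shares over all loci give for 8 genes. The median log2 ratio of the 8 genes to WT was 0.06 in *upf1-5*, -0.12 in *upf3-1*, and 0.15 with both mutations, and that of all loci was 0.00, -0.01, and 0.01. The sign in *upf3-1* depends on the *TEM* genes, since the median was 0.31 for the 6 AP2-like genes alone and -1.27 for *TEM1* and *TEM2*. Just outside the threshold were *TOE3* in *upf3-1*, at 1.99-fold of WT, and *TEM1* in the double mutant, 1.98-fold lower than WT. With the libraries scaled to the same median or the same 75th percentile, *TOE3* passed 2-fold in *upf3-1*.

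**Figure D3:**
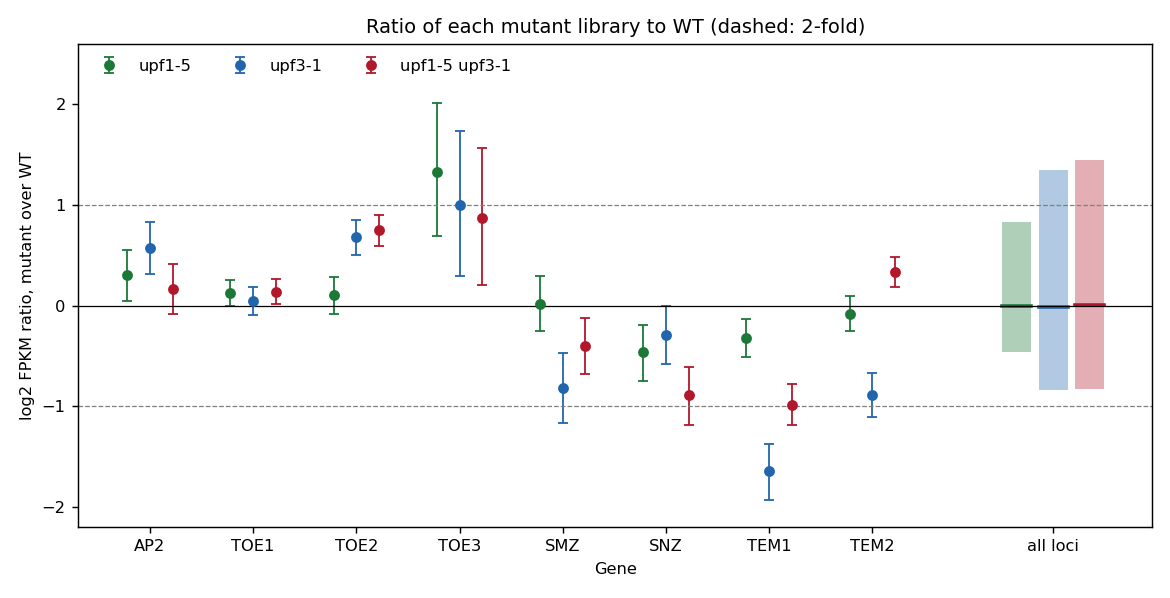
log2 FPKM ratio of each mutant library to WT for the 8 genes (points), with 95% counting intervals, and the range from the 10th to the 90th percentile of all loci with the median as a line (bars at the right). Dashed lines mark 2-fold, and the points past them are *TOE3* in *upf1-5* at 1.33 and *TEM1* in *upf3-1* at -1.64.

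*TOE3*, an AP2-like gene close to *AP2* that also acts on *AGAMOUS* in the flower, was at 2.23 FPKM in WT, 5.61 in *upf1-5*, 4.45 in *upf3-1*, and 4.09 with both mutations. All 3 mutant libraries were above WT, and the mutants overlapped one another in their intervals. The ratio to WT was 2.51 (1.61 to 4.04) in *upf1-5*, 1.99 (1.22 to 3.33) in *upf3-1*, and 1.83 (1.16 to 2.96) with both mutations. The product of both single-mutant ratios is 5.00, and the double mutant was at 0.366 times this product. *TOE3* rests on the fewest fragments of the 8 genes, between 30 and 63 per library. Low loci also pass the threshold more often than others. Among the 1990 loci whose WT level was within 1.5-fold of that of *TOE3*, 15.5% were up-regulated in *upf1-5*, and the share was 31.0% in *upf3-1* and 30.0% in the double mutant.

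*TOE2*, which represses flowering together with *TOE1*, was at 21.4 FPKM in WT, 23.0 in *upf1-5*, 34.2 in *upf3-1*, and 35.9 with both mutations. Both libraries with the *upf3-1* allele were above both libraries without it, beyond counting error. The ratio to WT was 1.07 (0.946 to 1.22) in *upf1-5*, 1.60 (1.42 to 1.80) in *upf3-1*, and 1.68 (1.503 to 1.87) with both mutations, below the threshold of 2-fold. Adding the *upf3-1* mutation gave nearly the same ratio in WT (1.60) as in *upf1-5* (1.56). *TOE1*, the most abundant of the AP2-like mRNAs, was at 47.0 FPKM in WT, 51.2 in *upf1-5*, 48.5 in *upf3-1*, and 51.6 with both mutations. Its ratios to WT of 1.03 to 1.099 were the narrowest range of the 8 genes, at the best precision of the AP2-like genes (721 to 1148 fragments).

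*AP2*, which sets floral organ identity beside repressing flowering, was at 15.9 FPKM in WT, 19.6 in *upf1-5*, 23.7 in *upf3-1*, and 17.9 with both mutations. The *upf3-1* library was the highest, and the double mutant overlapped WT. The ratio to WT was 1.23 (1.03 to 1.47) in *upf1-5*, 1.49 (1.24 to 1.77) in *upf3-1*, and 1.12 (0.943 to 1.33) with both mutations. The double mutant was at 0.752 (0.635 to 0.895) of *upf3-1*.

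The paralogs *SMZ* and *SNZ*, repressors first found through their overexpression in late-flowering plants, had their lowest levels in different mutants. *SMZ* was at 27.3 FPKM in WT, 27.6 in *upf1-5*, 15.5 in *upf3-1*, and 20.6 with both mutations. WT and *upf1-5* were alike within counting error, and both libraries with the *upf3-1* allele were below them. The ratio of *SMZ* to WT was 0.568 (0.444 to 0.722) in *upf3-1* and 0.756 (0.626 to 0.921) in the double mutant. *SNZ* was at 21.0 FPKM in WT, 15.2 in *upf1-5*, 17.2 in *upf3-1*, and 11.3 with both mutations. The WT library was the highest and the double mutant the lowest. The ratio of *SNZ* to WT was 0.724 (0.593 to 0.876) in *upf1-5*, 0.818 (0.670 to 0.999) in *upf3-1*, and 0.538 (0.439 to 0.656) with both mutations, and the product of both single-mutant ratios is 0.592. The upper bound in *upf3-1* is so close to 1 that it depends on the estimate of the fragment number.

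*TEM1* varied most among the 8 genes, with 39.4 FPKM in WT, 31.5 in *upf1-5*, 12.6 in *upf3-1*, and 19.9 with both mutations. The intervals of the 4 libraries did not overlap, in the order WT, *upf1-5*, double mutant, *upf3-1*. It was 3.12-fold (2.59 to 3.81) lower in *upf3-1* than in WT, a ratio at or below which 2.01% of all loci lay. It was 1.25-fold (1.101 to 1.42) lower in *upf1-5* and 1.98-fold (1.72 to 2.27) lower in the double mutant. Among loci whose WT level was within 1.5-fold of that of *TEM1*, 0.730% were down-regulated in *upf1-5*, 5.38% in *upf3-1*, and 6.08% with both mutations. The double mutant was at 1.58 times (1.29 to 1.96) the level of *upf3-1*. *TEM2*, its paralog, was at 40.7 FPKM in WT, 38.5 in *upf1-5*, 22.0 in *upf3-1*, and 51.3 with both mutations. The *upf3-1* library was the lowest and the double mutant the highest. *TEM2* was 1.85-fold (1.59 to 2.16) lower in *upf3-1* than in WT, and at 1.26 times (1.13 to 1.40) the WT level in the double mutant. The *TEM* paralogs thus shared the lowest library, *upf3-1*, and differed in the double mutant, where *TEM1* was below and *TEM2* above WT. Among 17369 annotated loci with at least 1 FPKM in every library, those with the pattern most like *TEM1* were AT3G63540 (described in the table as a PsbP family protein), AT5G49440 (an uncharacterized protein), and AT1G09750 (an aspartyl protease-like protein), whose log2 ratios to WT differed from those of *TEM1* by at most 0.11, 0.12, and 0.14 over the 3 mutants.

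The double mutant was also compared with each single mutant. Over *upf1-5*, 0 of the 8 genes were up-regulated and 0 were down-regulated, beside 9.64% and 4.47% of 20174 loci. Over *upf3-1*, 1 was up-regulated, *TEM2* at 2.33-fold (2.02 to 2.71), and 0 were down-regulated, beside 6.67% and 4.70% of 20272 loci. Adding the *upf3-1* mutation moved 5 of the 8 genes in the same direction in WT and in *upf1-5*, and 3 in opposite directions. For the *upf1-5* mutation, added to WT or to *upf3-1*, the counts were 4 and 4. With 8 genes and 1 library per genotype these counts are a description only. Ratios close to 1, such as those of *TOE1*, are counted by their sign, and the shares over all loci were not computed. *TOE3* differed most, as adding *upf3-1* gave a ratio of 1.99 in WT and of 0.729 in *upf1-5*, where the interval includes 1. *TEM2* followed, with a ratio of 0.540 in WT and of 1.33 (1.19 to 1.49) in *upf1-5*. *TOE1*, *TOE2*, and *SNZ* had like ratios for each mutation with or without the other, and the double mutant was at 0.976, 0.977, and 0.909 times the product of their single-mutant ratios.

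**Figure D4:**
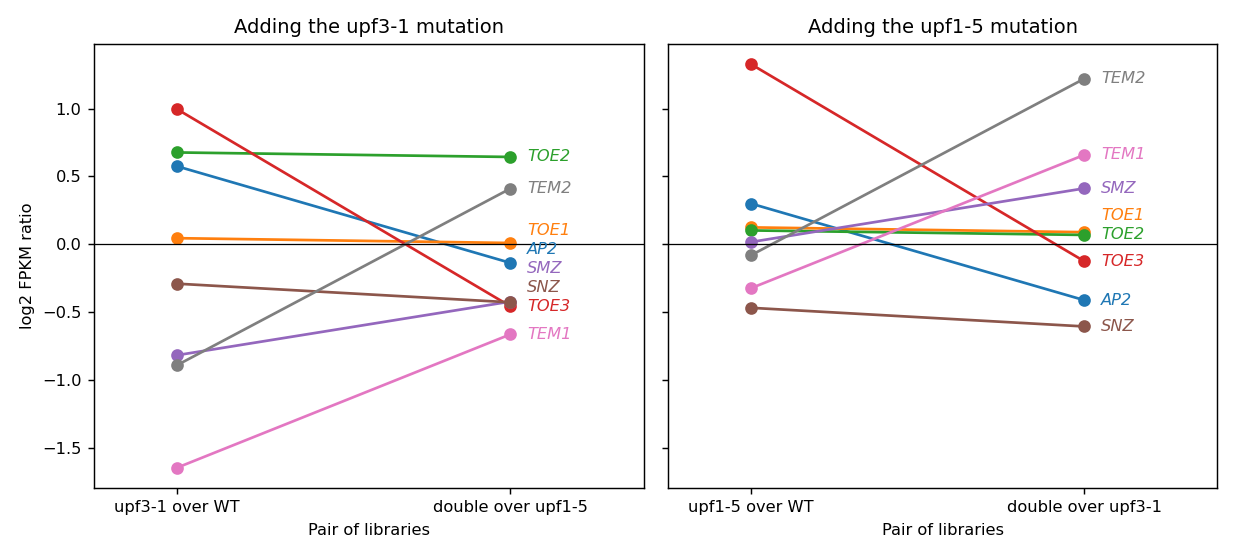
log2 FPKM ratio for adding the *upf3-1* mutation (left) and the *upf1-5* mutation (right), each to WT and to the other single mutant, with 1 line per gene. The lines of *TOE1* and *TOE2* are nearly flat, while *TEM2* crosses 0 in both panels, from -0.89 to 0.41 at the left and from -0.08 to 1.22 at the right.

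Genes connected with the repressors were examined as lists. *RAV1*, the RAV paralog of the *TEM* genes with values here, was at 29.7 FPKM in WT, 21.7 in *upf1-5*, 14.1 in *upf3-1*, and 14.0 with both mutations, and was down-regulated in *upf3-1* (2.10-fold) and in the double mutant (2.12-fold). Upstream of miR172, the SPL genes encode activators of *MIR172* genes and of flowering. Of 6 SPL genes that passed the filter on low values, 0 changed in *upf1-5*, *SPL4* was down-regulated in *upf3-1* (2.96 FPKM in WT, 0.911 in *upf3-1*), and *SPL11* was down-regulated in the double mutant (14.8 FPKM in WT, 7.11 in the double mutant). The median log2 ratio of this list was -0.26 in *upf1-5*, -0.47 in *upf3-1*, and -0.60 with both mutations. That of all loci was 0.00, -0.01, and 0.01. Of the *MIR172* transcripts, *MIR172A* had a value in WT (0.109 FPKM) and in the double mutant (0.211 FPKM), the others were not analysed here, and the mature miRNA was not measured. None of the 6 genes of miRNA processing and action (*DCL1*, *HYL1*, *SE*, *HEN1*, *HST*, and *AGO1*) changed in any mutant, with ratios to WT of 0.710 to 1.28, and none of the 5 *TOPLESS* family corepressors did, with ratios of 0.799 to 1.30.

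Among inputs to the repressors, *FKF1*, whose protein binds CO and the TOE proteins, was at 10.2 FPKM in WT and was down-regulated in *upf3-1* (3.70 FPKM). *CO* was at 2.10 FPKM in WT and was down-regulated in *upf3-1* (1.02 FPKM). *GI*, whose protein binds regions of *FT* and interacts with the TEM proteins, was up-regulated in the double mutant, from 3.32 FPKM in WT to 7.54 FPKM. *SVP*, which represses *FT* and also activates *TEM2*, had ratios of 0.780 to 1.13. Of the genes known to be repressed by AP2-like or TEM proteins, 5 passed the filter on low values in each mutant. Over all loci, 6.89% were down-regulated in *upf3-1* and 6.91% in the double mutant. The shares up-regulated were 7.64% in *upf1-5* and 15.0% in the double mutant. *FT* was at 6.96 FPKM in WT, 6.34 in *upf1-5*, 2.64 in *upf3-1*, and 1.36 with both mutations. *SOC1* was at 29.5, 17.2, 6.43, and 4.67 FPKM in the same order. Both were down-regulated in *upf3-1* and in the double mutant, and *FUL*, at 1.03 FPKM in WT, was down-regulated in *upf3-1* (0.452 FPKM). *GA3OX1*, a gibberellin synthesis gene that TEM proteins repress, went the other way, with 1.17 FPKM in WT, 4.75 in *upf1-5*, 2.26 in *upf3-1*, and 4.62 with both mutations, and was up-regulated in *upf1-5* (4.05-fold) and in the double mutant (3.94-fold). It was lower in *upf3-1*, the library with the lowest *TEM1* and *TEM2*, than in the other mutants. Whether the level of *GA3OX1* depends on the *TEM* genes here was not tested. *GA3OX2* did not pass 2-fold in any mutant (ratios of 0.721 to 1.17).

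The ANT clade holds AP2-domain genes without a role as miR172 targets, and includes the *PLETHORA* genes of the root meristem. Of its 7 genes that passed the filter in *upf1-5*, 2 were up-regulated, of 7 in *upf3-1*, 3 were, and of 8 in the double mutant, 3 were, and none was down-regulated. The shares of up-regulated loci were 7.64%, 14.6%, and 15.0% over all loci, and 15.5%, 31.0%, and 30.0% among the loci near the WT level of *TOE3*. *PLT1* was at 0.345 FPKM in WT and between 1.07 and 1.83 in the mutants, and was up-regulated in all 3. *PLT2*, at 0.147 FPKM in WT, was up-regulated in *upf3-1* (1.77 FPKM) and in the double mutant (1.48 FPKM). *AIL7* was at 0.936 FPKM in WT, and was up-regulated in *upf1-5* (1.95 FPKM) and in *upf3-1* (1.87 FPKM). *AIL6* was up-regulated in the double mutant (3.56 FPKM in WT and 10.1 FPKM). All of these but *AIL6* are near 1 FPKM and rest on few fragments. *PLT1*, *PLT2*, and *AIL7* were under 1 FPKM in WT, and passed the filter only through the mutant libraries. For *PLT1* and *PLT2*, 1 FPKM in a mutant is already over 2-fold of WT, so their calls followed from the filter. The loci near the WT level of *TOE3* lie above these genes in WT, so their shares are no matched background. The counts of this clade are therefore a description only.

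Some markers of tissues also differed between the libraries, and those of a tissue did not all go the same way. Of 4 root markers, *EXP7* (3.20 FPKM in WT), *COBL9* (0.978 FPKM), and *CASP1* (16.4 FPKM) were up-regulated in *upf3-1* (14.6, 2.95, and 43.7 FPKM) and in the double mutant (16.8, 4.06, and 36.9 FPKM). *IRT1*, which responds to iron, was at 22.3 FPKM in WT and was up-regulated in *upf1-5* (51.5 FPKM). It was not called in *upf3-1* (17.9 FPKM) and was down-regulated in the double mutant (1.75 FPKM). Of 3 leaf markers, *RBCS1A* was down-regulated in *upf3-1* (2.06-fold) and in the double mutant (2.24-fold), *LHCB1.1* was up-regulated in both (2.50-fold and 3.29-fold), and *CAB3* had ratios of 0.748 to 0.922. Of the floral organ markers, *AP3* was at most at 0.311 FPKM, *PI* was at 4.61 FPKM in WT and 0.401 to 0.733 in the mutants, and *SEP3* was at 10.1 FPKM in WT, 5.43 in *upf1-5*, 12.7 in *upf3-1*, and 1.02 with both mutations. Of the shoot meristem markers, *STM* was at 3.22 to 5.24 FPKM. *CLV3* was under 1 FPKM in WT (0.925) and in *upf1-5* (0.735), and had no value here in *upf3-1* or the double mutant. The part of tissue composition in the differences of the 8 genes was not tested, and in RNA of whole seedlings fewer cells of a type and less RNA per cell cannot be told apart.

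**Figure D5:**
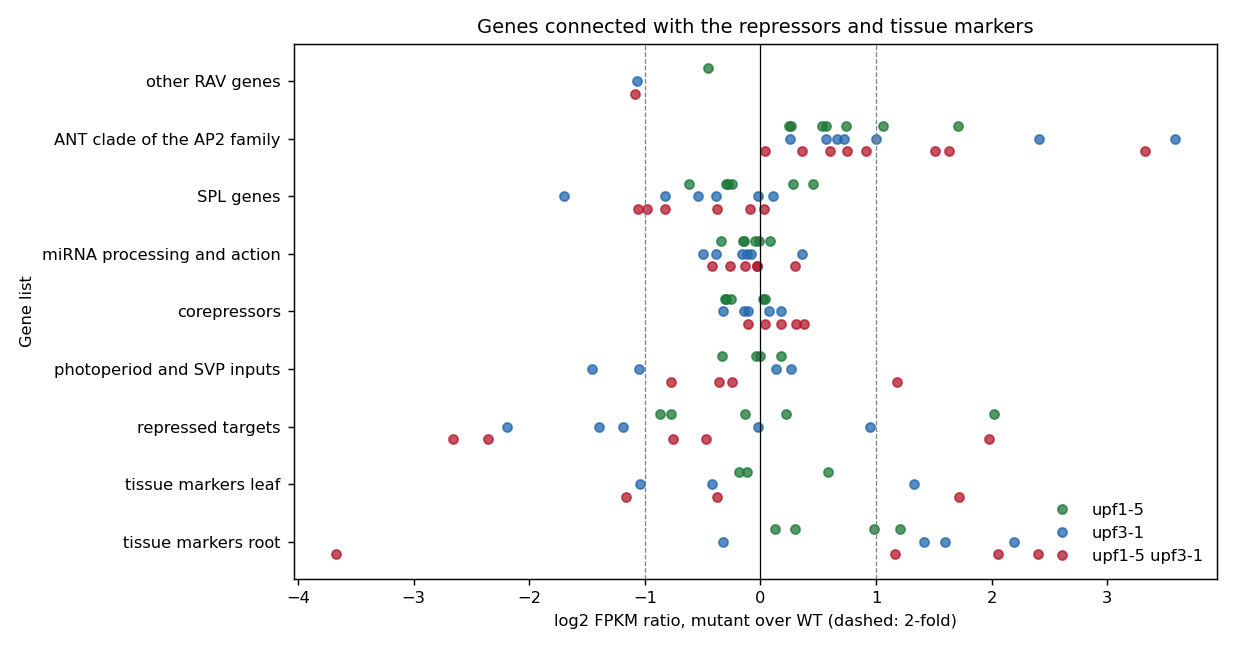
log2 FPKM ratio to WT of the genes of each list that passed the filter on low values (horizontal axis, 1 point per gene) in *upf1-5*, *upf3-1*, and the double mutant, with dashed lines at 2-fold. The miRNA processing and corepressor genes all lie within 2-fold, while *SOC1* is at 0.158 times WT in the double mutant and *PLT2* at 12.0 times WT in *upf3-1*.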

How the data were processed

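RNA-seq libraries of 4 genotypes, 1 for each, were sequenced by the authors, who aligned reads to TAIR10 with TopHat and quantified loci with Cufflinks and Cuffdiff, per the methods and labels. The labels name a kit for polyadenylated RNA and the methods a kit with removal of rRNA, so which RNA was selected is not settled. Whether counting used the strand is not given in the sources used here. In the table deposited by the authors, the FPKM column adds up a pair of libraries, and the fold is the higher over the lower value, to 2 decimals. The table also holds q-values of the authors' comparisons, which were not used. It names WT Col-0, and the double mutant was matched to its name by elimination of the other 3 names. No replicate exists for any genotype.

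The FPKM of a library was solved from the sum, fold, and direction of each of its pairs and averaged with weights from the rounding error, and ratios used no pseudocount. On a simulated table of 20666 loci, 100% of 200 loci changed 4-fold were recovered for the double mutant against WT. The largest error of a value of 1 FPKM or more was 0.370%. The changed loci held rounding but no counting error, so this checks the arithmetic of the recovery and not the calls at real depth. The value of 1 fragment was taken from the lowest steps of FPKM times length among single-model genes over 1500 nt under 1 FPKM in WT, and from ratios to WT at loci with a pair sum under 0.6 FPKM in the mutants, of which 47.3%, 38.8%, and 44.4% were within 5% of a step. The value in each mutant was chosen to fit these same loci, and the share near a step without such a fit was not computed. From lengths alone, the value over WT was 1.52 in *upf3-1* and 0.924 in the double mutant, beside 1.47 and 0.981 from these ratios. In *upf1-5* both gave 1.20. Fragment numbers are estimates, since annotated models and their lengths need not be those of the authors. A gene was called at 2-fold with 1 FPKM in either library. Gene models, miRNAs, and sites came from the RefSeq TAIR10.1 annotation.

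Members and lists were chosen with earlier results of these data known. The rule for named genes took the 8 members, the list genes past 2-fold with 1 FPKM in any mutant, lists without such a gene by their range, and the 3 loci nearest to the most variable member. *SVP*, *GA3OX2*, *CAB3*, *AP3*, and *CLV3* fall outside it and were named after their values were seen, to account for the rest of their lists. *UPF1* and *UPF3* were named to check the labels. The classes of loci at the WT level of *TOE3* and *TEM1* were chosen after their values were seen. Of the lists, *EDF3*, AT1G50680, AT1G51120, *AIL1*, *MIR172B* to *MIR172E*, *HDA19*, *AP1*, *AG*, and *WUS* were not analysed here. Alternatives were folds of 1.5 and 4, other FPKM filters, pseudocounts of 0.1 and 1, and rescaled libraries. The tools were SciPy 1.17.1, pandas 2.3.3, NumPy 2.4.6, and matplotlib 3.10.9 in Python 3.11.15, and 0 per-sample columns were left unused.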

Additional observations from a re-analysis of the deposited data

Results flagged for a closer look

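For 4 genes, a mutation went with a ratio of at least 1.2-fold in one direction in WT and in the opposite direction in the other single mutant. The difference was not tested, since each ratio compares 1 library with 1 library. The share of all loci that meet the same rule was not computed, so the count is no trait of these genes. For *TEM2*, adding *upf3-1* gave a ratio of 0.540 in WT and 1.33 in *upf1-5*. For *TOE3*, adding *upf3-1* gave 1.99 in WT and 0.729 in *upf1-5*, and the counting interval of the latter includes 1. For *TEM1*, adding *upf1-5* gave 0.800 in WT and 1.58 in *upf3-1*. For *AP2*, adding *upf1-5* gave 1.23 in WT and 0.752 in *upf3-1*.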

How the results depend on the processing

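All 160 alternative ratios of the 8 genes, under pseudocounts of 0.1 and 1 and under both rescalings, stayed within their counting intervals, and all 32 levels from the best single pair were within 0.124% of the main value. The counts of calls depend on the threshold. At a fold of 1.5, *upf3-1* had 2 genes up-regulated (*TOE2* and *TOE3*) and 3 down-regulated (*SMZ*, *TEM1*, and *TEM2*), and the double mutant had 2 (*TOE2* and *TOE3*) and 2 (*SNZ* and *TEM1*). Ratios of this size were common among all loci. In *upf3-1*, 20.4% of loci were at or above the ratio of *TOE2* and 10.5% at or below that of *SMZ*. In the double mutant, 19.6% were at or above *TOE2* and 8.86% at or below *SNZ*. The shares of all loci past 1.5-fold were not computed. At a fold of 4, 0 were called up in *upf1-5* and 0 down in *upf3-1*. With libraries rescaled to a median ratio of 1 or to the same 75th percentile, 1 gene, *TOE3*, was up-regulated in *upf3-1*. The median log2 ratio in *upf3-1*, -0.12 over the 8 genes, turned to 0.31 for the AP2-like genes alone. Over the pathway lists, a pseudocount of 1 left 1 gene up-regulated in *upf1-5* and 3 in the double mutant, where 3 and 5 were counted without it, and without the FPKM filter *upf1-5* had 5 genes up and 1 down. No paired analysis was possible because each genotype has 1 library, and none could be left out. Depth limits *TOE3* most, with 30 fragments in WT.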
